A study of Mus musculus with 12 samples.

Results

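The 4 myogenic regulatory factors Myod1, Myf5, Myf6 and Myog were followed through H3K4me3 and MBD2 peak lists of differentiating C2C12 cells, a mouse myoblast line. They are 4 of the 21938 protein-coding genes of the mm10 annotation (GENCODE M21), and every peak at their promoters and within 20 kb of the gene was used. A promoter here is the 1 kb on either side of a transcript start. Peaks came from CUT&RUN, in which an antibody tethers a nuclease that releases fragments of nearby chromatin for sequencing. The 4 cell states were day 0 cells, day 1 cells, and, at day 5, myotubes and reserve cells, the unfused cells that stay mononucleate. Per the labels, all came from 1 line that was differentiated in DMEM with 2% horse serum, and mild trypsin separated both day 5 fractions. The titles abbreviate these fractions, which were read as myotubes and reserve cells. Each antibody gave 1 library per state, so no difference below has a replicate check and no test was possible. Control IgG libraries were not analysed here.

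Myogenic regulatory factors are basic helix-loop-helix transcription factors that bind E-boxes as dimers with E proteins and switch on muscle genes. Myod1 and Myf5 commit cells to the muscle lineage, Myog (myogenin) drives terminal differentiation, and Myf6 (MRF4) acts in both settings and is a main member of the family in adult muscle. H3K4me3 is a histone mark found at the starts of active or poised genes. MBD2 binds methylated CpG sites and recruits the NuRD chromatin remodelling complex.

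Myod1 (ENSMUSG00000009471.4) lies at chr7:46376474-46379099 on the plus strand and Myog (ENSMUSG00000026459.5) at chr1:134289989-134292548 on the plus strand. Myf5 (ENSMUSG00000000435.1) at chr10:107482908-107486134 and Myf6 (ENSMUSG00000035923.4) at chr10:107492853-107494737 are on the minus strand, with Myf6 upstream. Their starts are 8603 bp apart, so the 20 kb neighbourhoods of Myf5 and Myf6 held the same peaks. Each such peak is counted once. In counts of genes within 20 kb, Myf5 and Myf6 each count as a gene although their peaks are the same. Each of the 4 genes has 1 start in GENCODE M21, and RefSeq extends Myf5 a further 793 bp upstream.

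Sequences are shown for the places where peaks of these genes differed between states, where an upstream peak was shared by all, or where MBD2 lay. The RefSeq promoter table (GRCm38.p6, the mm10 assembly) held 2 of the 4 genes, Myog and Myf5. The Myog promoter is shown because its mark was absent at day 0 and lay on both sides of the start in myotubes alone. It is given as the 250 bases before the RefSeq start on the plus strand, chr1:134289754-134290003. Capitals mark E-boxes (CANNTG), a MEF2 box (CTANNNNTA) and a MEF3 site (TCAGGTTTC), searched on both strands.
Myog promoter: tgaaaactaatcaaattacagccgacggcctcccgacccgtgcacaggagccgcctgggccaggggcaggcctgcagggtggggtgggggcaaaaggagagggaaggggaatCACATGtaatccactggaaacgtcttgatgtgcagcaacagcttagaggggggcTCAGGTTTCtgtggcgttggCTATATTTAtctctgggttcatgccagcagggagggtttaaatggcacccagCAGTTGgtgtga
The E-boxes CACATG and CAGTTG began 138 and 12 bases before the RefSeq start, the MEF2 box CTATATTTA 64 and the MEF3 site 84 bases before it. Of 32841 RefSeq promoters of this length, 66.2% held at least 1 E-box and 31.8% at least 2, 18.96% a MEF2 box and 0.387% the MEF3 site. E-boxes and MEF2 boxes of this loose form are thus common in promoters, and the exact MEF3 site is not.

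The next sequences are from upstream of Myod1 and of Myf6. The first is 300 bases at the summit of a myotube H3K4me3 peak (chr7:46371758-46372057, plus strand) upstream of Myod1, where the other states had no peak. The other is 300 bases at the day 0 summit of a peak upstream of Myf6 that all 4 states shared (chr10:107498787-107499086, minus strand). Capitals mark the E-boxes and MEF2 boxes.
Myod1 upstream H3K4me3 summit, myotubes: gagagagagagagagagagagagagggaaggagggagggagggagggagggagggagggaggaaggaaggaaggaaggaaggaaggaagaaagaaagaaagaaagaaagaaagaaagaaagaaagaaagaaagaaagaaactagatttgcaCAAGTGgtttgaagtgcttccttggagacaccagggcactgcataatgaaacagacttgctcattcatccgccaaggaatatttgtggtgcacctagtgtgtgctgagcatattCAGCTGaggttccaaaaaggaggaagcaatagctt
Myf6 upstream H3K4me3 summit, day 0: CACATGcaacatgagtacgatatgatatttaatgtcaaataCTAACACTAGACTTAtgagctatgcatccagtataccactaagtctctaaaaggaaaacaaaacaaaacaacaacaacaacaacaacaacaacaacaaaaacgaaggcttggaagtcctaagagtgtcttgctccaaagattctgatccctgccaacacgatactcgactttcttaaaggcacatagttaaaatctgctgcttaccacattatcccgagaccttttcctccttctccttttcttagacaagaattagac
The Myod1 window held the E-boxes CAAGTG and CAGCTG, and 147 of its bases are repeat-masked. Among 26034 such windows at myotube summits, 39.1% held at least 2 E-boxes and 19.04% held CAGCTG. The Myf6 window held 1 E-box and 3 overlapping MEF2 matches, and 92 of its bases are repeat-masked. The matches CTAACACTA and TAACACTAG are the same stretch, shifted by a base and read on opposite strands, so they are not separate sites. At least 3 MEF2 matches, counted in the same way, occurred in 1.08% of 19217 windows at day 0 summits. A match describes letters in a window and is not evidence of binding.

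The last pair of sequences lies under the MBD2 peaks, with CG dinucleotides, the sites that DNA methylation needs, in capitals. Both are on the plus strand, the first 300 bases of the peak beyond Myod1 (chr7:46380290-46380589) and the whole 223 bp peak upstream of Myf6 (chr10:107503605-107503827).
Myod1 MBD2 peak, first 300 bases: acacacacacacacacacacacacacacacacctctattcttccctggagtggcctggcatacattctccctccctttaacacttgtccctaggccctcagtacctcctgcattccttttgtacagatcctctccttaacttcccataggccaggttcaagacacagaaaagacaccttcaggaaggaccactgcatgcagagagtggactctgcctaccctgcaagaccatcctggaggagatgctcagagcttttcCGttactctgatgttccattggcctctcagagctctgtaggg
Myf6 MBD2 peak, whole: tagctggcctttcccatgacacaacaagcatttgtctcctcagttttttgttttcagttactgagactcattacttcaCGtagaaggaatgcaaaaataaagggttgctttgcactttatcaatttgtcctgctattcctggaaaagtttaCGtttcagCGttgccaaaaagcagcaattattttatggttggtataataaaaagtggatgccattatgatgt
The whole Myod1 peak held 3 CG sites in 446 bp, or 0.673 per 100 bases, and 23.9% of day 0 MBD2 peaks had a lower density. The Myf6 peak held 3 in 223 bp, or 1.35 per 100 bases, with 54.1% of peaks lower, and the median of that list was 1.24 per 100 bases.

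The lists behind these peaks differed in size and strength. In the order day 0, day 1, myotubes and reserve cells, 19218, 17665, 26034 and 15920 H3K4me3 peaks and 14948, 452, 288 and 111 MBD2 peaks lay on the assembled chromosomes and were used. The number of reads per library was not given in the sources used here, so depth is unknown. The pileup (fragments over the summit) and fold enrichment (pileup over local background) of each peak are the authors' values. The median pileup of an H3K4me3 peak was 24 fragments in myotubes and between 91 and 104 in the other states, so peak heights are not set against each other between lists.

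Myotube markers differed most in their calls between states. Of 8 myotube markers, 0 carried promoter H3K4me3 at day 0, 8 at day 1, 8 in day 5 myotubes and 6 in reserve cells, with 868, 22588, 54666 and 16044 bases covered in sum within 5 kb of the starts. Myh3 and Tnni2 were the markers without it in reserve cells. Of 6 proliferation markers, 6, 6, 5 and 6 were marked over 22055, 18390, 8638 and 15080 bases in sum, Ccnb2 being the one without a peak in myotubes. Of 6 reserve or satellite cell markers, 6, 6, 5 and 6 were marked, with Cd34 missing in myotubes. Their sums of 25856, 26931, 20989 and 24961 bases were no higher in reserve cells than at day 0. Other cell types were also looked for: 3, 4, 3 and 4 of 4 fibroblast markers carried the mark (14153, 17049, 7219 and 13229 bases), 0, 2, 2 and 0 of 5 blood and endothelium markers, 1, 1, 1 and 0 of 4 neuron markers, and 2 of 4 adipocyte markers in each state. In such bulk libraries, fewer cells with a mark and less mark per cell cannot be told apart. How far each day 5 fraction held cells of the other was not tested.

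Promoter H3K4me3 was present at Myod1, Myf5 and Myf6 in all 4 states and at Myog in every state but day 0. Thus 3 of 4 promoters carried a peak at day 0, where 56.5% of all protein-coding genes did, and 4 of 4 did at day 1, in day 5 myotubes and in reserve cells, against 56.2%, 57.3% and 54.8% of all genes. Among the stronger 50% of each list by q-value, the promoters with a peak numbered 1 at day 0, 1 at day 1, 4 in the myotube list and 0 in the reserve cell list. This cut fell at a different strength in each list, so these counts do not rank the states. It kept the myotube Myod1 peak with 35 fragments and dropped the reserve cell Myf5 peak with 65. Within 20 kb of the genes lay 6 different H3K4me3 peaks at day 0, 6 at day 1, 17 in day 5 myotubes and 5 in reserve cells. The 2 MBD2 peaks there were both from day 0, and neither was at a promoter. Of the 17 myotube peaks, 9 overlapped no H3K4me3 peak of another state, 3 near Myod1 and 6 near Myog, while 33.6% of all myotube peaks did so. Of these 9 peaks, with pileups between 8 and 33 fragments, 2 were among the 15920 strongest peaks of the myotube list, the size of the shortest H3K4me3 list. None of the 6 day 0, 6 day 1 and 5 reserve cell peaks was particular to its state, against 9.32%, 2.34% and 1.19% of all peaks in those lists.

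**Figure D1:**
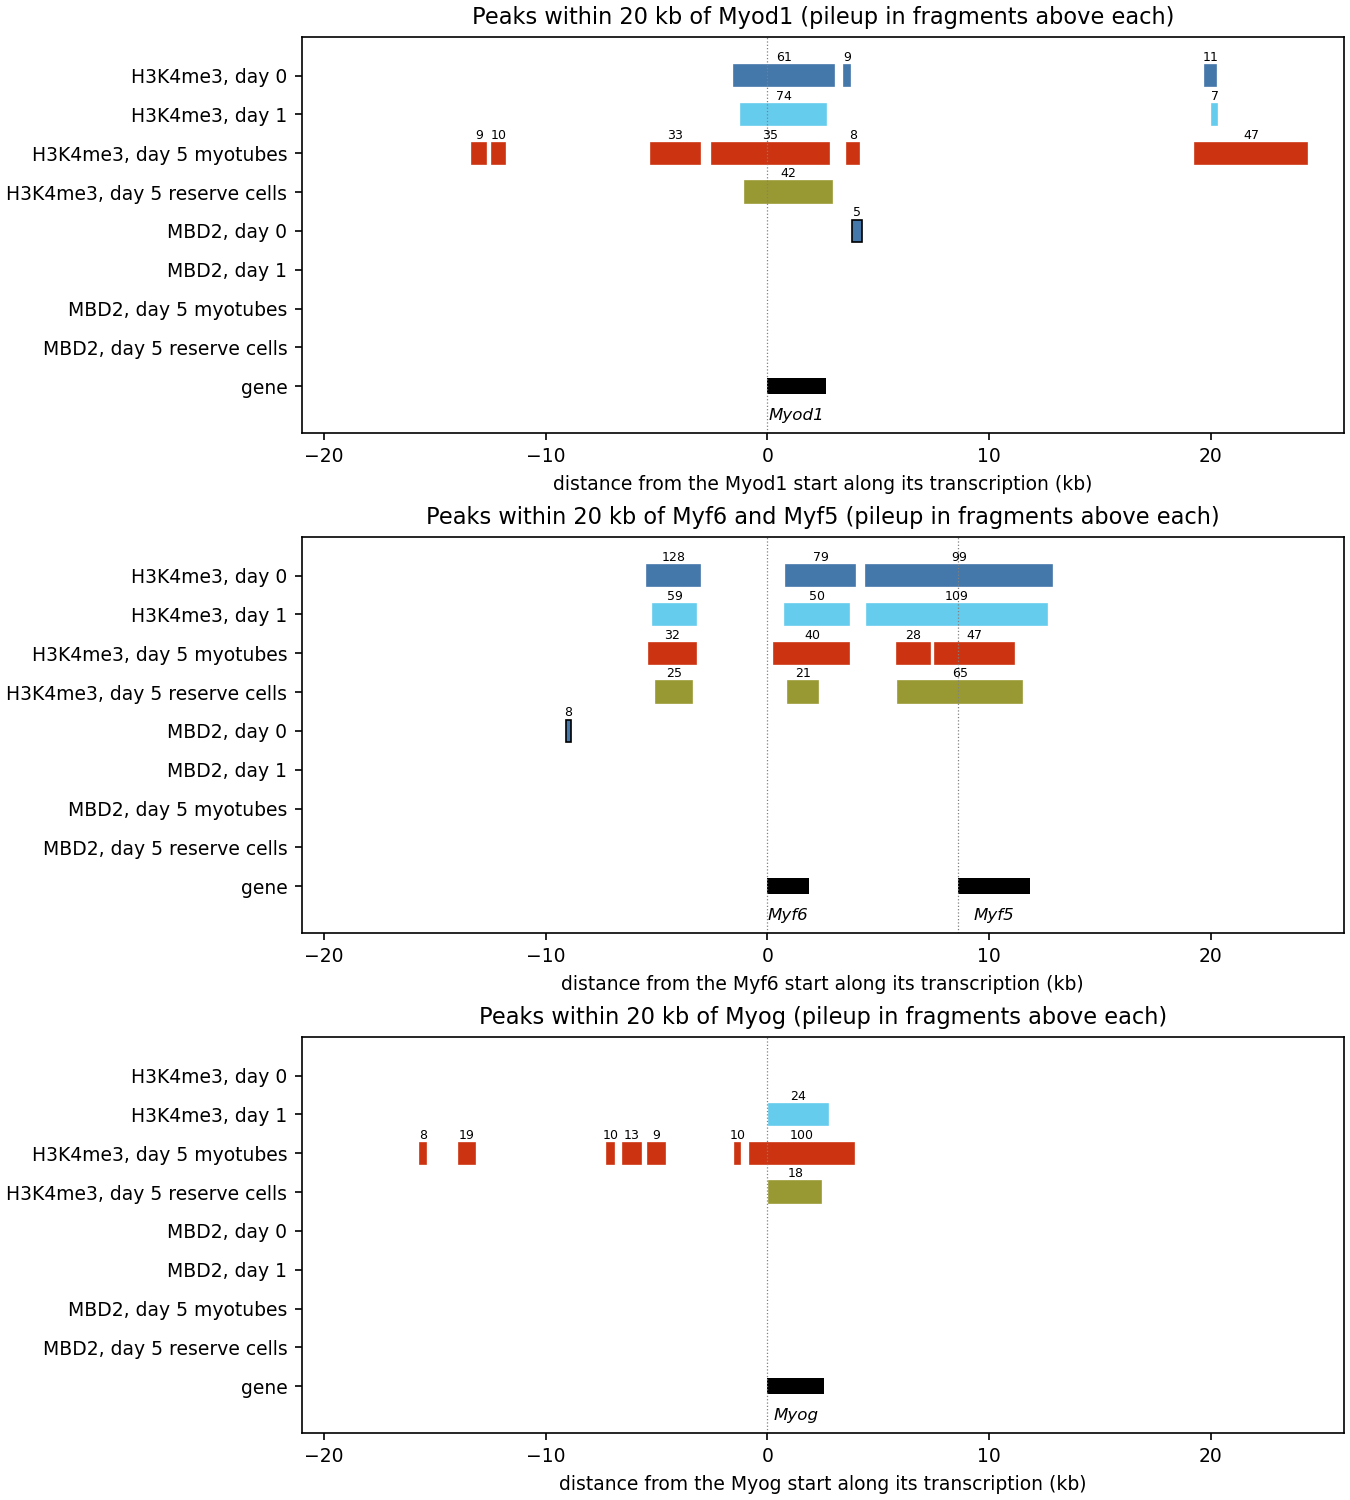
Peaks of the 8 lists within 20 kb of Myod1, of Myf6 with Myf5, and of Myog, drawn to scale against the distance from the gene start in kb, with the pileup in fragments printed above each peak and black bars for the genes. Peaks upstream of Myod1 and Myog appear in the myotube row alone, the peak upstream of Myf6 is in all 4 H3K4me3 rows, and MBD2 has a peak only in the day 0 rows beyond Myod1 and upstream of Myf6.

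Myod1, the determination factor, had a broad H3K4me3 peak over its start and whole body in every state. This peak was 4508 bp long with a pileup of 61 fragments at day 0, 3846 bp and 74 fragments at day 1, 5282 bp and 35 fragments in day 5 myotubes, and 3943 bp and 42 fragments in reserve cells. It covered 100% of the gene in all 4 libraries and was longest in myotubes. Fold enrichment was 7.68 at day 0, 25.6 at day 1, 16.2 in day 5 myotubes and 20.6 in reserve cells. The low day 0 value stood beside a local background of 7.07 fragments per base, higher than at 99.4% of the peaks in that list, whereas the pileup of 61 fragments exceeded that of 42.3% of them. The background at this peak was 1.93, 1.22 and 1.08 fragments per base at day 1, in day 5 myotubes and in reserve cells. The summit lay 147 bp before the start at day 0, 97 bp after it at day 1, 1815 bp after it in day 5 myotubes and 145 bp after it in reserve cells, so the myotube summit alone was deep in the gene.

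Upstream of Myod1, peaks were found in myotubes alone. The strongest ran from 5.25 to 3.04 kb before the start (chr7:46371224-46373434), was 2211 bp long, and had a pileup of 33 fragments and a fold enrichment of 15.3. It covered all 1090 bases of Gm45923, a non-coding RNA gene that RefSeq also lists as DRReRNA and Munc, and 0 bases of it were covered in the other 3 states. DRReRNA is named for the distal regulatory region, an element upstream of Myod1 that acts in differentiated muscle, and this RNA is known from mouse myoblasts to promote differentiation. Further upstream, myotube peaks of 654 and 595 bp began 13.3 and 12.4 kb before the start, with pileups of 9 and 10 fragments. Small peaks lay just beyond the gene, 268 bp with 9 fragments at day 0 and 505 bp with 8 fragments in myotubes.

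The far edge of the Myod1 neighbourhood reached the start of Kcnc1, which encodes a voltage-gated potassium channel and starts 20023 bp from the Myod1 start. A peak there was 493 bp long with 11 fragments at day 0, 225 bp with 7 at day 1 and 5058 bp with 47 in day 5 myotubes, and there was none in reserve cells. Those of its bases that fall within 20 kb are part of the 20 kb values for Myod1 and not of the 5 kb values.

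Myf5, the other determination factor, carried the longest of all these peaks. Its start peak was 8398 bp long at day 0 with a pileup of 99 fragments and 8129 bp at day 1 with 109 fragments. In myotubes it was 3578 bp with 47 fragments, followed upstream by a separate peak of 1507 bp with 28 fragments, and in reserve cells it was 5605 bp with 65 fragments. It was longer than 99.5% of the peaks of both the day 0 and the day 1 list. The gene was covered over 100% of its length at day 0 and day 1, 78.8% in day 5 myotubes and 89.1% in reserve cells, where the downstream end of the gene was bare. Fold enrichment was 40.5, 48.8, 21.6 and 15.1 in the order of the states. The reserve cell value stood beside a local background of 3.37 fragments per base, above that of 98.6% of peaks in that list.

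Myf6 had its H3K4me3 peak inside and beyond the gene, and in no library over its start. The peak was 3117 bp with 79 fragments at day 0, 2871 bp with 50 at day 1, 3380 bp with 40 in day 5 myotubes and 1355 bp with 21 in reserve cells. Its edge nearest the start lay 855, 816, 320 and 921 bp inside the gene in the same order, so the mark came closest to the start in myotubes and overlapped the promoter window by 146, 185, 681 and 80 bp. The share of the gene covered was 54.6%, 56.7%, 83.0% and 51.1%. The summit of this peak lay 2140, 2144, 2114 and 1389 bp after the start. The gene is 1885 bp long, so only the reserve cell summit was inside it. With the window cut to 500 bp, or an overlap of at least 200 bp asked for, the Myf6 promoter kept its peak in myotubes alone. Peaks that missed the start were uncommon: among marked genes, 96.6% at day 0, 96.4% at day 1, 96.1% in day 5 myotubes and 96.4% in reserve cells had a peak over the start. Among the marked genes of the family this held for 2 of 3 at day 0, 2 of 4 at day 1, 3 of 4 in day 5 myotubes and 2 of 4 in reserve cells.

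A further peak upstream of Myf6 was present in all 4 states. It was 2396 bp with 128 fragments at day 0 (chr10:107497758-107500153), 1955 bp with 59 at day 1, 2125 bp with 32 in day 5 myotubes and 1607 bp with 25 in reserve cells. The day 0 summit was 4200 bp before the Myf6 start and had the highest pileup of the 6 day 0 peaks near the 4 genes. The 4 summits fell within 33 bp of each other. Myf6 is not the only gene there: RefSeq places the non-coding RNA gene Gm36177 across it, on the opposite strand, from 531 bp upstream of Myf6.

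Myog, which drives terminal differentiation, had no H3K4me3 peak within 20 kb at day 0. At day 1 it had 1 peak of 2673 bp with a pileup of 24 fragments and a fold enrichment of 11.1. In myotubes the peak over the gene was 4706 bp with 100 fragments and 45.4, and in reserve cells it was 2364 bp with 18 fragments and 7.08. The day 1 and reserve cell peaks began 71 and 77 bp inside the gene and left the promoter side bare, whereas the myotube peak ran from 786 bp before the start to 3.92 kb after it. In myotubes the pileup exceeded that of 79.8% of the peaks in its list, more than at Myod1, Myf5 or Myf6, which exceeded 55.3%, 58.9% and 56.9%. At day 1 it exceeded 28.0% of its list and in reserve cells 21.7%. The lists differ in length, so these ranks describe each list by itself.

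A string of 6 smaller myotube peaks lay between 15.7 and 1.22 kb upstream of Myog, with lengths from 232 to 816 bp and pileups from 8 to 19 fragments. The one with 19 fragments was 705 bp long and began 13.9 kb before the start. Myoparr, a non-coding RNA gene on the opposite strand whose transcript is known in mouse muscle cells to promote Myog expression, begins 228 bp upstream of Myog. Myotube peaks covered 734 of its 1167 bases, or 62.9%, and 0 bases were covered in the other 3 states. The neighbour Ppfia4, a liprin gene that starts 42939 bp away, had 380, 3739, 7348 and 2844 bases marked within 5 kb of its start in the order of the states.

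Breadth, the number of bases under H3K4me3 peaks, set the genes apart. Within 5 kb of the start, Myod1 had 4776 bases at day 0, 3846 at day 1, 7748 in day 5 myotubes and 3943 in reserve cells. Myf5 had 8767, 8213, 5182 and 5605 bases in that order. Myf6 had 5638, 5166, 5155 and 2948 bases, and Myog 0, 2673, 5316 and 2364. The broadest of the 4 was Myf5 at day 0, at day 1 and in reserve cells, and Myod1 in day 5 myotubes. Marked protein-coding genes had medians of 2790, 2528.5, 2488 and 2221 bases. At day 0 Myf5 was broader than 99.7% of marked genes, Myf6 than 94.3% and Myod1 than 88.7%. In myotubes Myod1 was broader than 99.2%, Myog than 92.4%, Myf5 than 91.3% and Myf6 than 91.2%. In reserve cells Myf5 was broader than 97.9%, Myod1 than 89.7%, Myf6 than 73.8% and Myog than 55.02%.

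**Figure D2:**
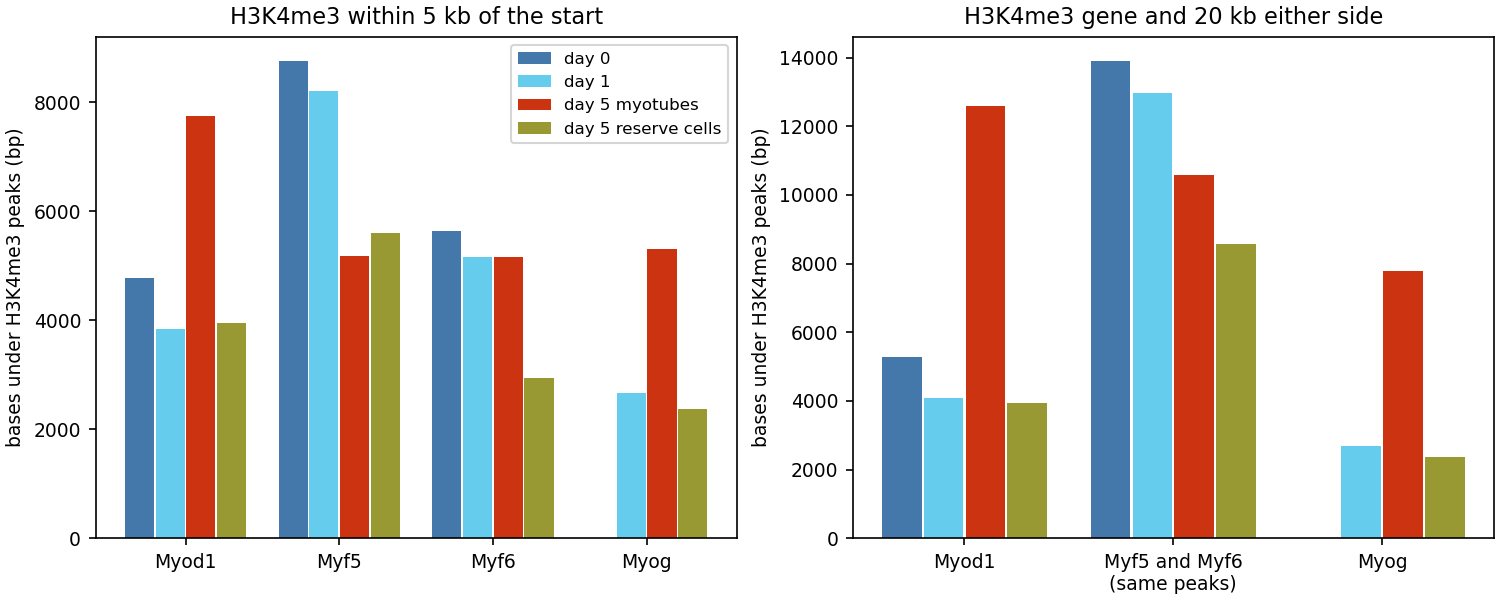
Bars give the bases under H3K4me3 peaks (bp, from 0) in each of the 4 states, 1 library each, within 5 kb of each start (left) and over the gene with 20 kb either side (right, where Myf5 and Myf6 share the same peaks). Myod1 and Myog have their tallest bars in myotubes (12581 and 7790 bases within 20 kb), and Myf5 has its tallest at day 0 (8767 bases within 5 kb of the start).

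Between myotubes and day 0, Myod1 and Myog were broader and Myf5 narrower in myotubes. Over the gene and 20 kb either side, Myod1 had 12581 bases in myotubes, against 5269 at day 0, a ratio of 2.39, and Myog had 7790 bases in myotubes against 0 at day 0. Myf5 with Myf6 had 10590 bases in myotubes, against 13911 at day 0, a ratio of 0.761. Among the stronger 50% of each list, the values were 10590 in myotubes and 10794 at day 0. A difference of at least 1 kb more within 5 kb of the start was reached by 2 of 4, Myod1 (7748 bases in myotubes, against 4776 at day 0) and Myog, beside 9.56% of genes. Such shares are over protein-coding genes with any H3K4me3 in that window in either library. At least 1 kb fewer was reached by 1, Myf5, where 12.7% of genes did. Within 20 kb, 2 of 4 had at least 1 kb more, beside 21% of genes, and 2, Myf5 and Myf6 from the same peaks, at least 1 kb fewer, beside 22.1%.

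At day 1 the main difference from day 0 was at Myog. It gained its peak at day 1, as did 1.72% of genes unmarked at day 0, and none of the 3 marked genes lost one, against 1.86% of all marked genes. Within 20 kb, Myod1 had 4071 bases at day 1, against 5269 at day 0, and Myf5 with Myf6 had 12955 at day 1, against 13911 at day 0. Within 5 kb of the start, Myog alone had at least 1 kb more, which 1.26% of genes had, and 0 of 4 had at least 1 kb fewer, which 5.71% had. Within 20 kb, Myog had at least 1 kb more, beside 2.46% of genes, and Myod1 at least 1 kb fewer, beside 22.6%. Myod1 fell short of 1 kb within 10 kb, a range without the Kcnc1 start, with 3846 bases at day 1, against 4776 at day 0. Gains of a promoter peak relative to day 0 were made by 5.33% of unmarked genes in myotubes and 1.38% in reserve cells, Myog being the only one of the 4 that could gain. Losses were 0 of 3 in both, against 2.77% and 4.12% of marked genes.

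Reserve cells had fewer bases under H3K4me3 peaks than day 0 cells at 3 of the genes. Within 20 kb, Myod1 had 3943 bases in reserve cells, against 5269 at day 0, and Myf5 with Myf6 had 8567, against 13911. Myog had 2364 bases in reserve cells and 0 at day 0. At least 1 kb fewer bases within 5 kb of the start were found at Myf5 and Myf6, 2 of 4, beside 21.1% of genes. Within 20 kb such a difference was found at 3 of 4, with Myf5 and Myf6 from the same peaks, beside 50.3% of genes. A narrower mark in reserve cells was thus common across genes. Myod1 reached 1 kb only with the peak at the Kcnc1 start. Within 10 kb, a range without that peak, Myod1 had 3943 bases in reserve cells, against 4776 at day 0. At least 1 kb more within 5 kb was found at Myog alone, where 0.88% of genes had it, and within 20 kb likewise, where 1.13% had it.

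Between the day 5 fractions, myotubes had more bases within 20 kb at all 4 genes. Each difference was at least 1 kb, as at 43.3% of genes, and Myf5 and Myf6 had theirs from the same peaks. At least 1 kb fewer was found at 0 of 4, beside 2.35% of genes. All 4 promoters were marked in both fractions, so none could be gained, and 0 of 4 were without a peak in myotubes; over all genes, 7.09% of those unmarked in reserve cells were marked in myotubes and 1.32% of those marked in reserve cells were not. Myod1 had 12581 bases in myotubes, against 3943 in reserve cells, a ratio of 3.19. For Myog the values were 7790 in myotubes and 2364 in reserve cells, a ratio of 3.30, and for Myf5 with Myf6 10590 in myotubes and 8567 in reserve cells. Close to the start the order differed for Myf5, with 5182 bases in myotubes and 5605 in reserve cells within 5 kb. Within 5 kb, 3 of 4 had at least 1 kb more in myotubes, beside 19.4% of genes, and 0 had at least 1 kb fewer, beside 1.93%. The myotube list was the longest and reserve cells' the shortest, and the part of list size in these differences was not tested beyond the alternative settings.

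**Figure D3:**
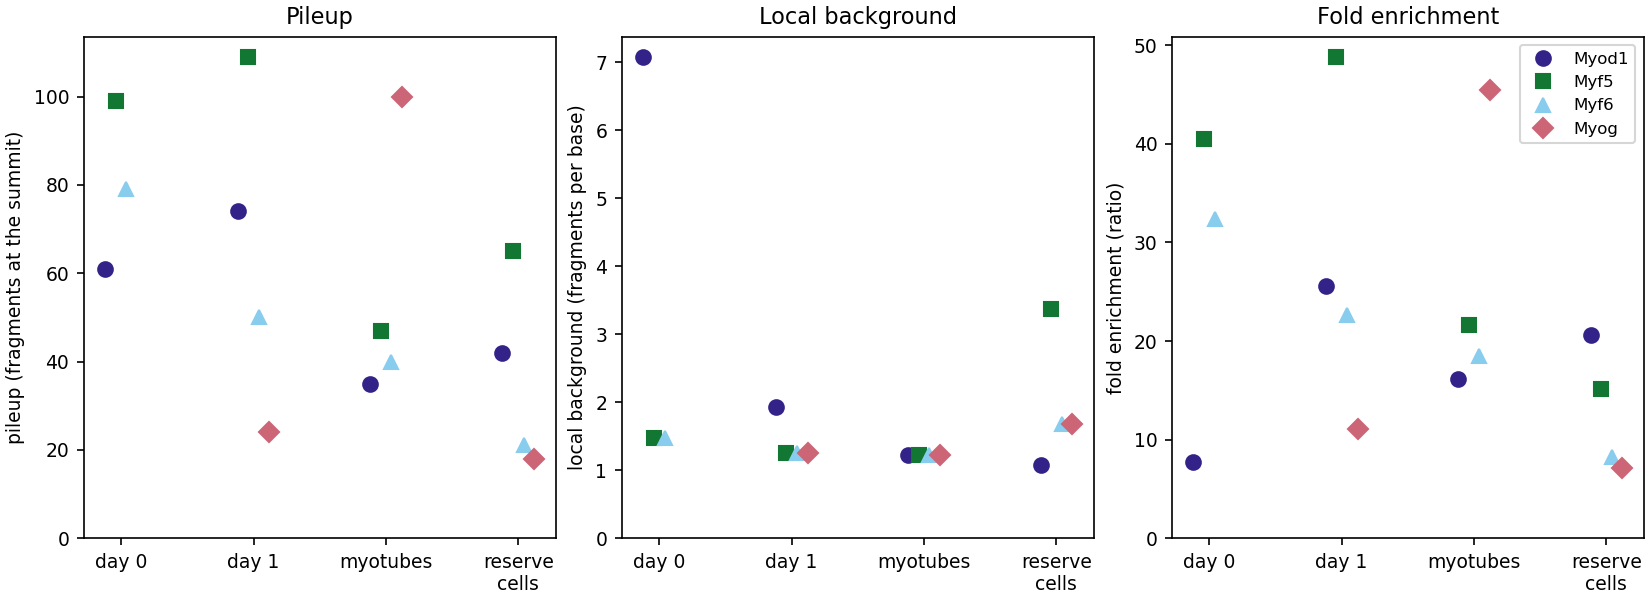
Pileup (fragments at the summit), local background (fragments per base) and fold enrichment (ratio) of the H3K4me3 peak at each of the 4 genes, with 1 point per gene and library and the states along the horizontal axis. Myod1 at day 0 stands alone with a background of 7.07 fragments per base. Its fold enrichment of 7.68 there lies near those of Myog (7.08) and Myf6 (8.20) in reserve cells. Myog in myotubes has a pileup of 100 fragments.

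MBD2 was not found at the promoter of any of the 4 genes in any state, which is also the case for most genes: 11.1% had a promoter MBD2 peak at day 0, 0.998% at day 1, 0.62% in day 5 myotubes and 0.251% in reserve cells. Within 20 kb, 3 of 4 genes had a peak at day 0, where 39% of genes did, with Myf5 and Myf6 sharing the same peak. At day 1, in day 5 myotubes and in reserve cells 0 of 4 had one, where 3.22%, 1.96% and 0.707% of genes did. The peak near Myod1 was 446 bp long, had a pileup of 5 fragments and a fold enrichment of 4.41, and began 1.19 kb past the gene end. It was weak for its list, and with each MBD2 list cut to its 111 strongest peaks neither peak remained. In the full list 5.89% of peaks had a lower pileup. The peak near Myf6 and Myf5 was 223 bp long with 8 fragments and 6.62, and lay 8.87 to 9.09 kb upstream of Myf6. Neither overlapped an H3K4me3 peak at day 0, whereas 36.3% of all day 0 MBD2 peaks did. The gap to the nearest day 0 H3K4me3 peak was 80 bases at Myod1 and 3451 at Myf6. In myotubes, the small H3K4me3 peak beyond Myod1 overlapped 297 bases of the day 0 MBD2 position.

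The partners and regulators of the family were read from 6 lists. All 7 E proteins and Id inhibitors, the dimer partners of the family and their competitors, carried promoter H3K4me3 in all 4 states. So did all 13 coactivators and cell cycle exit genes and all 4 MEF2 genes, which encode cofactors of the family. Mef2c, the muscle MEF2 gene known to act with Myog, had promoter peaks with fold enrichments of 30.0, 43.1, 20.7 and 8.93 in the order of the states. Within 5 kb of its 5′ end it was marked over 0, 0, 6870 and 0 bases. At day 0, at day 1 and in reserve cells its promoter peak lay at another start, outside that window. Among 17 repressors of the family, 15 were marked in every state, and Twist1 and Dbx1 in none. Among 17 upstream regulators, 15 were marked at day 0, 12 at day 1, 12 in day 5 myotubes and 11 in reserve cells. Relative to day 0 the losses were 3, 3 and 4, beside 1.86%, 2.77% and 4.12% of all marked genes. Among the 15920 strongest peaks of each list the marked regulators numbered 13, 12, 12 and 11. With the stronger 50% of each list they numbered 11, 11, 12 and 11, so the drop after day 0 was not seen there. Eya2, Six2 and Meox2 had a promoter peak at day 0 and in no later library, with day 0 fold enrichments of 5.95, 4.29 and 4.05. Lbx1, with 10.3 at day 0, was unmarked in reserve cells too. Pax3 and Meox1 were marked in no state.

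Direct target genes of the family, among them sarcomere, fusion and acetylcholine receptor genes, were mostly unmarked at day 0. They include all 8 myotube markers above, so these counts partly repeat those of the markers. Of 28, 10 carried promoter H3K4me3 at day 0, 27 at day 1, 28 in day 5 myotubes and 25 in reserve cells. Counted at the gene 5′ end alone, 12, 25, 26 and 20 did in the same order. Some targets called unmarked at day 0 thus had a day 0 peak near that end. Relative to day 0, 17 of the 18 unmarked targets gained it at day 1, 18 in day 5 myotubes and 15 in reserve cells, beside 1.72%, 5.33% and 1.38% of all unmarked genes. None of the 10 marked ones lost it, beside 1.86%, 2.77% and 4.12% of all marked genes. The median breadth within 5 kb of the 5′ end was 268, 3023.5, 6437 and 2080.5 bases. Actc1, cardiac alpha-actin, had 0, 3179, 9680 and 597 bases, and Tnnt3, fast skeletal troponin T, had 0, 1932, 7370 and 1580. Myh8, the perinatal myosin heavy chain, was marked in myotubes alone, and Tnni2 and Myh3, fast troponin I and embryonic myosin, were unmarked in reserve cells. Targets marked already at day 0 included the receptor kinase gene Musk, with a fold enrichment of 147, and the cadherin gene Cdh15, with 78.1.

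**Figure D4:**
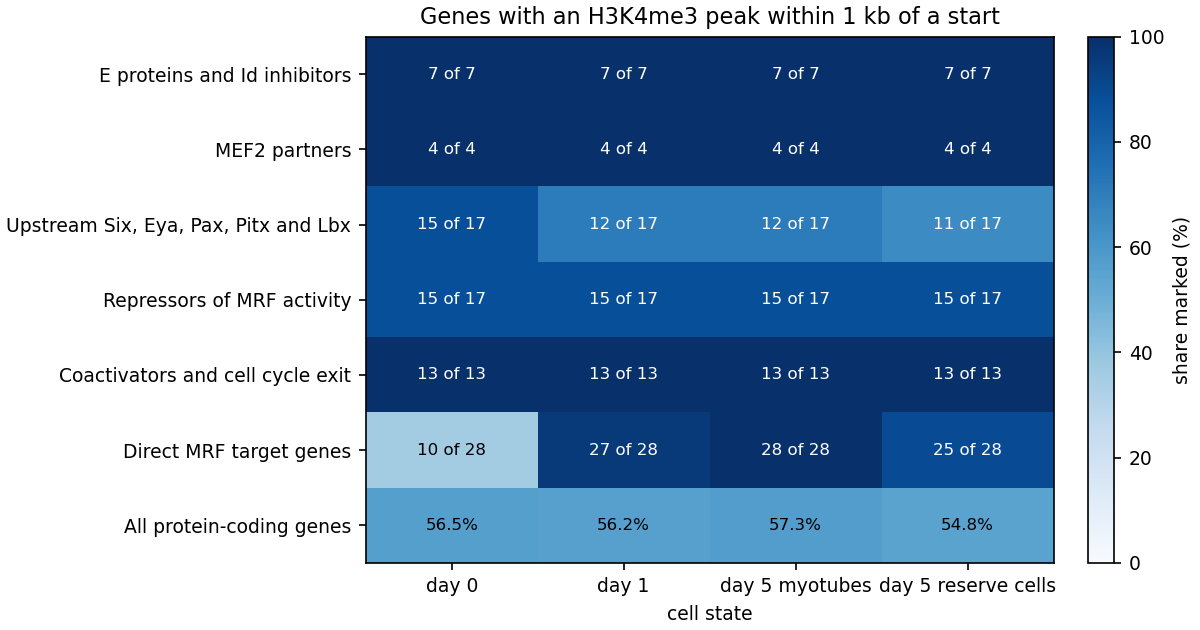
Each cell gives the number of genes of a list, of those found, with an H3K4me3 peak within 1 kb of a start in each state, shaded by the share marked in percent, and the bottom row gives the share of all protein-coding genes. Direct targets are marked at 10 of 28 at day 0 and at 28 of 28 in myotubes, while E proteins, MEF2 genes and coactivators are marked in full in all 4 states.

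MBD2 was found at the promoters of several partners. Over all genes the share was 11.1% at day 0 and at most 0.998% later, and the day 0 list was by far the longest, so fewer promoters with MBD2 after day 0 were found across all genes. Of the 7 E protein and Id genes, 5 had it at day 0 and 1 in each later state. Tcf3 had it in all 4 states and encodes the E proteins E12 and E47, with fold enrichments of 16.2, 8.55, 6.64 and 7.71 in the order of the states, and Id2, Id1, Tcf4 and Id3 had 8.09, 6.62, 5.02 and 4.47 at day 0. Of 17 upstream regulators 6 had it at day 0, among them Foxo3 with 8.09 and Eya3 with 5.88. The 3 repressors were Hdac4 with 12.3, Zeb2 with 5.88 and Hdac5 with 5.88, and the 2 coactivators Hes6 with 5.15 and Carm1 with 3.66. MEF2 genes had none in any state. Of the direct targets, 3 had it at day 0, namely Mylpf with 96.0, Chrna1 with 19.1 and Chrnb1 with 12.2, which encode a fast myosin light chain and acetylcholine receptor subunits. Mylpf also had it at day 1 with 43.4 and in reserve cells with 9.25, and Acta1, skeletal alpha-actin, in day 5 myotubes with 6.97.

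The genes most like each member were found by the distance between their breadths within 5 kb in the 4 libraries (the root of the summed squared differences, in bp). Nearest to Myog were Tnnt2, a cardiac troponin T that is one of the listed targets, at 327 bp and with 0, 2839, 5433 and 2108 bases, and then Lmod3, Trim72, Myom3 and Lmod2 at 601 to 1173 bp. Nearest to Myod1 were Naif1 at 464 bp, Ap4s1 and Strn3, which share the same peaks, at 492 bp, Klf5 at 594 bp and Aldoa at 628.5 bp. Myf5 had no close match, the nearest being Hist1h3g at 866 bp, Tubb5 at 1111 bp and Hist1h3i at 1339 bp, with the Id inhibitor gene Id3 in the fifth place at 1438 bp. Nearest to Myf6 were Gdi2 at 463 bp and Jpt1 at 475 bp. These distances describe 4 libraries and carry no test.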

How the data were processed

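Per the submitters' processing notes, reads were handled with Trim Galore, Bowtie2, SAMtools and MACS2 on mm10. Versions, settings and the role of the IgG libraries were not given in the sources used here. A list covers 1 library. The H3K4me3 lists hold 19236, 17681, 26046 and 15933 peaks and the MBD2 lists 14968, 470, 302 and 135, in the order day 0, day 1, myotubes and reserve cells, and peaks on other sequences than chromosomes 1 to 19, X and Y were left out. The pileup deposited for a peak is a signal, and its fold enrichment, per the file headers, is a ratio. The columns deposited as −log10 of the p-value and −log10 of the q-value have damaged names; they were identified by place and by a smallest −log10 q of 1.31 over the 8 lists, just above that of q = 0.05.

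Genes and starts came from GENCODE M21 basic. A peak was at a promoter if it overlapped the 1 kb either side of a start by at least 1 bp. Breadth was measured within 5 kb of the start and over the gene with 20 kb either side, and a change of 1 kb was called. Local background was computed as (pileup + 1)/fold − 1. Its lowest value per list, a stand-in for depth, was 1.47, 1.25, 1.22 and 1.08 fragments per base for H3K4me3 and 0.360, 0.286, 0.776 and 0.947 for MBD2, in the order day 0, day 1, myotubes and reserve cells. Work used Python 3.11.15, pandas 2.3.3, NumPy 2.4.6, pysam 0.24.0 and matplotlib 3.10.9, and the counting was checked on simulated peaks.

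The members and lists were chosen with earlier results of these data known. The 6 lists name 87 symbols, of which 86 were found (all but Tmem8c). Named list genes were those with a changed promoter H3K4me3 peak or a promoter MBD2 peak, at most 6 per list and comparison by fold enrichment, and the 5 genes most like each member; Mef2c, Actc1, Tnnt3, Musk, Cdh15, Kcnc1 and Ppfia4 were named after their values were seen, as were the markers missing in a fraction. For 1 list gene the value is not reported here. Each state has 1 library per antibody, so values are set side by side without a test.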

Additional observations from a re-analysis of the deposited data

Results flagged for a closer look

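Myod1 moved in opposite directions in the day 5 fractions. H3K4me3 within 20 kb of the gene covered 12581 bases in myotubes, against 5269 at day 0, a difference of 7312 bases, and 3943 bases in reserve cells, against 5269 at day 0, a difference of -1326 bases. With 1 library per state, this difference between the fractions was not tested, and both share the day 0 library. The reserve cell difference was -565 bases with equal numbers of peaks and 0 with the stronger 50% of each list, and 50.3% of genes had at least 1 kb fewer bases in reserve cells. Within 10 kb of the gene, a range that leaves out the Kcnc1 start, the myotube difference was 3222 bases and the reserve cell difference -833 bases.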

How the results depend on the processing

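No paired analysis was possible because each group had 1 library and no test was made. Of the alternative values for the main counts, 126 stayed within 1.5 times the reported count and 10 moved. Many of the 126 are MBD2 counts of 0, which a stricter setting could not change. A fall from 4 to 3 or from 3 to 2 members also stays within 1.5 times, as when Myf6 lost its promoter call with the 500 bp window. The tally is thus not a measure of stability. With only the stronger 50% of each list, members with promoter H3K4me3 numbered 1 at day 0, 1 at day 1 (Myf5 in both) and 0 in reserve cells, while all 4 kept it in day 5 myotubes; members with more bases than at day 0 numbered 0 at day 1 and 0 in reserve cells; and marked direct targets numbered 7 at day 1 and 7 in reserve cells. In that setting the Myog peak was thus kept in myotubes alone. The cut fell at a different strength in each list, so these counts do not rank the states. With 111 MBD2 peaks from each list, 0 members had one within 20 kb at day 0. Within 50 kb, 1 member (Myog) had one in myotubes. Within 5 kb of the start, 1 member had fewer bases in myotubes than in reserve cells, Myf5, whose difference turned to -423 bases, against 2023 within 20 kb. With the 15920 strongest H3K4me3 peaks of each list, Myod1 had 10827 bases in myotubes and 4508 at day 0, and Myog 5411 in myotubes and 0 at day 0. The settings for the lists of partners and targets were added after the data were seen. Of the differences in bases for single members, the Myf5 one above is the only one that changed sign in any of these settings. With the stronger 50% several became 0 or shrank: Myf5 with Myf6 had 10590 bases in myotubes and 10794 at day 0. Others grew in that setting, where the cut kept weaker peaks in myotubes than in the other lists. For Myf5 with Myf6, reserve cells minus day 0 went from -5344 to -10794 bases, with 0 bases left in reserve cells. For Myod1, myotubes minus day 0 went from 7312 to 10827. Depth is unknown, so the absence of a peak is not the absence of the mark.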

Other observations

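Between 20 and 50 kb from Myod1, H3K4me3 peaks were found in myotubes alone. Upstream, peaks of 1064, 607 and 1671 bp lay between 27.3 and 23.2 kb before the start, with pileups of 18, 21 and 18 fragments. A 345 bp myotube peak with 12 fragments lay 34.3 kb before the Myod1 start. MBD2 had day 0 peaks of 469 and 566 bp upstream of Myod1, with summits 34.9 and 38.9 kb before the start, pileups of 15 and 16 fragments and fold enrichments of 8.94 and 9.50, both stronger than the day 0 peak within 20 kb. Between 20 and 50 kb from Myog, all 4 states had H3K4me3 peaks toward the Ppfia4 start, among them a 380 bp peak with 12 fragments at day 0, a 3739 bp peak with 32 at day 1, a 4142 bp peak with 69 in day 5 myotubes and a 1395 bp peak with 14 in reserve cells. Beyond Myog, a myotube MBD2 peak of 238 bp with 9 fragments and a fold enrichment of 5.63 lay 28.4 kb past the gene end, inside a myotube H3K4me3 peak of 972 bp with 12 fragments.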
